A study of Mus musculus with 10 samples.

Results

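The comparison described here is that of mouse embryonic stem cells (ESCs) that lack Otx2 and carry a doxycycline-inducible Otx2 transgene, grown without doxycycline (dox), with Otx2-/- ESCs that have no transgene. There was 1 RNA-seq library of each. Genes were included when they had at least 5 FPKM (fragments mapped to a gene, scaled to transcript length and library size) in either of these libraries, which held for 8951 of the 22867 gene symbols in the tables. The library of the same transgenic cells grown with dox was read beside them for direction.

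OTX2 is a homeodomain transcription factor that binds DNA at sites with the core TAATCC. In the mouse it is needed for the forebrain and midbrain, and in cultured cells it acts in the exit from naive pluripotency, the ground state of ESCs, towards the formative state of the early post-implantation epiblast that epiblast-like cells (EpiLCs) model. In a tetON system, transcription of the transgene depends on a transactivator that binds its promoter when dox is present. Transcription without dox is called leak.

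The series has 10 libraries. The first is Otx2-/- with tetON Otx2 and no dox, the second the same genotype with dox, and the third Otx2-/- without the transgene, all 3 grown as ESCs. Another 3 ESC libraries came from cells with Otx2 (2 of the R1 line and 1 of E14), and the last 4 were EpiLCs (2 R1, 1 E14 and 1 Otx2-/-). Per the labels, all lines are of 129SV origin, and all 6 ESC libraries came from cells kept without serum in LIF plus 2 inhibitors, PD0325901 (0.8 µM, against MEK) and CHIR99021 (3.3 µM, against GSK3). EpiLCs had bFGF and knockout serum replacement for 48 h in the R1 libraries, and 1 of these cultures also received 20 ng/ml of activin A, which is not stated for the E14 and Otx2-/- EpiLCs. The sources used here do not give the dox dose and time, the number of transgenic clones, or the part of Otx2 that was deleted. With 1 library on each side, no difference between the no-dox and Otx2-/- libraries has a replicate check, and none has a p-value. Differences between the transgenic line and its Otx2-/- comparator that have nothing to do with Otx2 cannot be told apart from an effect of low Otx2.

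Sequencing depth could be estimated from the lowest values of olfactory receptor genes: about 15100000 fragments in the no-dox library, 9200000 in the plus-dox library and 20500000 in the Otx2-/- ESC library. At 5 FPKM, a transcript of 2 kb then has about 151, 92 and 205 fragments in these libraries. For such a transcript, counting error is small beside a 2-fold difference. Shorter transcripts, and values under 5 FPKM in 1 of the libraries, have fewer fragments. The genes counted higher below had a median longest transcript of 1576 bases, so counting error is larger for many of them. R1 ESC replicate 1 was unlike the rest of the ESC libraries and differed 2-fold from R1 ESC replicate 2 in 878 genes (9.91% of 8864).

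The Otx2 gene (mm9 chr14:49277858-49282547) had 45.8 FPKM without dox, 1059 FPKM with dox and 7.85 FPKM in Otx2-/- ESCs. The R1 ESCs had 5.72 and 9.09 FPKM and the E14 ESCs 3.96 FPKM. The no-dox value was therefore above all 4 ESC libraries without the transgene, by 2.40 on the log2(FPKM + 1) scale over Otx2-/- ESCs, and far below the value with dox, which was 6.90 above Otx2-/- ESCs. EpiLCs with Otx2 had 107, 151 and 39.9 FPKM, so the no-dox library overlapped the EpiLC range. Otx2-/- ESCs had as much signal as ESCs with Otx2, and Otx2-/- EpiLCs had 15.8 FPKM, below the 3 EpiLC libraries with Otx2. A gene-level FPKM adds reads from the transgene and from what is left of the endogenous gene, so it does not check the deletion.

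Of the 8951 genes, 120 were at least 2-fold higher without dox than in Otx2-/- ESCs (1.34%) and 122 were at least 2-fold lower (1.36%), on the log2(FPKM + 1) scale. Most of them were not ordinary messenger RNA values. Entries for small RNAs or of under 200 bp made up 58 of the higher and 81 of the lower genes, although they were only 248 of the 8951. Another 8 higher and 15 lower genes were listed at 0 in a library although expressed in others, as Hnrnpa3 was in Otx2-/- ESCs, where it was listed at 0 beside 1478 FPKM without dox. Among the lower ones, Setd5, AF357355, Sec16a and Nav1 were instead listed at 0 without dox and in all R1 and E14 ESCs, with values in Otx2-/- ESCs. Without the small RNA entries and the genes listed at 0, 8633 genes had usable values, and 54 were higher (0.626%) and 26 lower (0.301%). The median ratio over the 8633 was 0.04 and the SD over genes 0.31. All counts below are over these 8633 unless another number is given.

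Pairs of ESC libraries differed in similar numbers of genes. By the same rule, the no-dox library differed from E14 ESCs in 86 genes (0.998%) and from R1 ESC replicate 2 in 149 genes (1.71%). Otx2-/- ESCs differed from E14 ESCs in 50 genes (0.584%) and from R1 ESC replicate 2 in 91 genes (1.05%), and the E14 and R1 replicate 2 libraries differed from each other in 62 genes (0.718%). The 80 genes counted either way between no dox and Otx2-/- (0.927%) lay within the 50 to 91 found among the 3 pairs that hold no transgenic library and not R1 replicate 1. Of these pairs, only E14 with R1 replicate 2 holds no Otx2-/- library, and its 62 genes were fewer than the 80. By direction, the 54 higher genes (0.626%) were more than in either direction of those 3 pairs, where the most was 47 (0.543%). The 26 lower genes (0.301%) were inside their spread. With dox, 734 of 9124 genes were higher (8.04%) and 567 lower (6.21%) than in Otx2-/- ESCs.

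**Figure D1:**
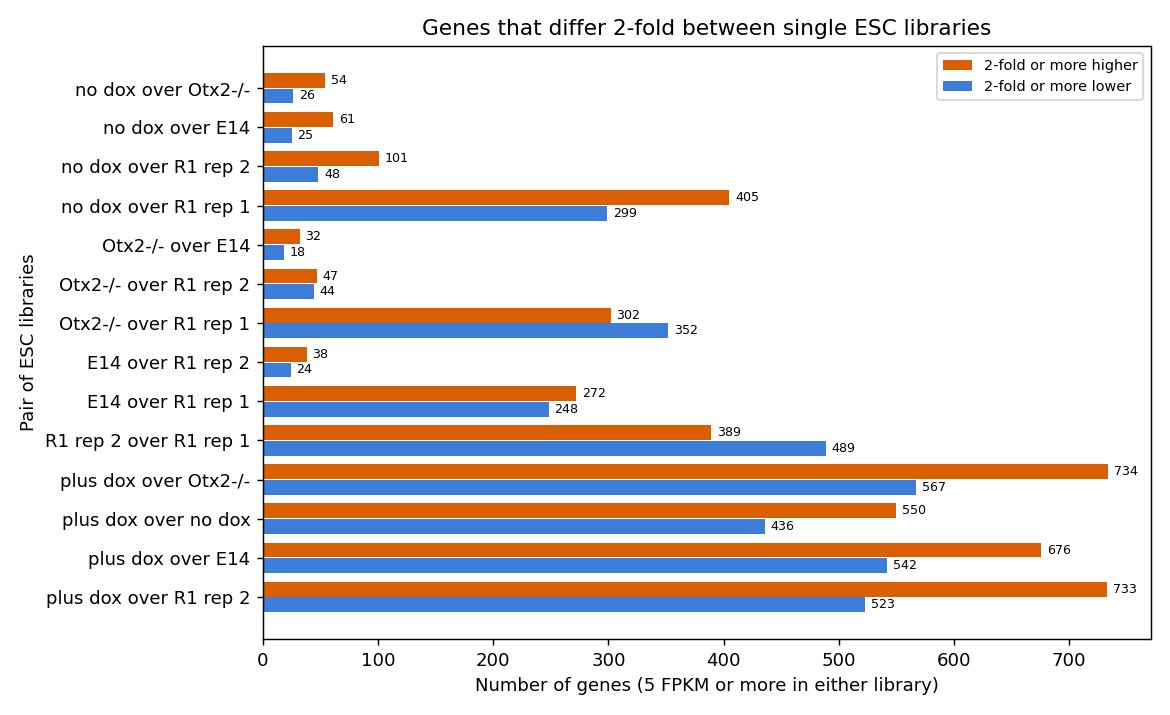
Number of genes at least 2-fold higher (orange) or lower (blue) on the log2(FPKM + 1) scale for each pair of single ESC libraries, among genes with a usable value and 5 FPKM or more in either library of the pair. The pair of no dox over Otx2-/- has 54 and 26, and plus dox over Otx2-/- has 734 and 567. Otx2-/- over E14 has 32 and 18, Otx2-/- over R1 replicate 2 has 47 and 44, and E14 over R1 replicate 2 has 38 and 24.

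The genes with the largest excess without dox included genes that EpiLCs also express more. Krt19, a keratin of simple epithelia, had 14.5 FPKM without dox, 21.7 FPKM with dox, 0.776 FPKM in Otx2-/- ESCs, and 1.48, 0.673 and 1.12 FPKM in R1 and E14 ESCs. It was 3.12 (log2) above Otx2-/- ESCs, the largest ratio of the 54 genes, and both transgenic libraries lay above all 4 other ESC libraries. S100a6, a calcium-binding protein, had 17.5 FPKM without dox, 17.0 FPKM with dox and 4.02 FPKM in Otx2-/- ESCs, against 3.0 to 7.54 FPKM in R1 and E14 ESCs. Its values with and without dox differed by -0.04 (log2) and lay in the range of EpiLCs, at 14.6 to 19.5 FPKM. Enpp3, an ectonucleotidase, had 10.4 FPKM without dox, 17.9 FPKM with dox and 3.28 FPKM in Otx2-/- ESCs. R1 ESC replicate 2 had 10.3 FPKM of Enpp3, so the no-dox value barely passed the range of ESCs with Otx2.

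A pair of pluripotency genes stood in this group too. Dppa3, a maternal and germline factor also used as a marker of naive cells, had 5.55 FPKM without dox, 68.1 FPKM with dox and 1.31 FPKM in Otx2-/- ESCs. R1 and E14 ESCs had 2.07, 4.06 and 1.65 FPKM, so among the ESC libraries Dppa3 was highest with dox and next highest without it. EpiLCs with Otx2 had 4.55 to 8.12 FPKM. Utf1, a chromatin-associated factor of pluripotent cells, had 259 FPKM without dox, 226 FPKM with dox and 83.5 FPKM in Otx2-/- ESCs. R1 and E14 ESCs had 256, 183 and 163 FPKM, so for Utf1 it was the Otx2-/- library that was low. Csf3, the cytokine G-CSF, had 6.49 FPKM without dox, 10.7 FPKM with dox and 0.0570 FPKM in Otx2-/- ESCs. It was listed at 0 in both R1 ESC libraries and had 0.0794 FPKM in E14 ESCs, and EpiLCs had at most 0.0329 FPKM.

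The other genes of the 12 with the largest excess had less even values. Prmt2, an arginine methyltransferase, had 59.0 FPKM without dox, 147 FPKM with dox and 15.8 FPKM in Otx2-/- ESCs, but E14 ESCs had 48.8 FPKM and 1 R1 EpiLC library 153 FPKM. The nucleoporin gene Nupl1 had 165 FPKM without dox, 55.9 FPKM with dox and 34.3 FPKM in Otx2-/- ESCs, while R1 ESCs had 167 and 236 FPKM and E14 ESCs 29.9 FPKM. Values of Nupl1 and Prmt2 thus varied several fold among libraries with Otx2. Ddhd1, a phospholipase, had 25.1 FPKM without dox, 8.65 FPKM with dox and 5.49 FPKM in Otx2-/- ESCs, and Pcsk1n, an inhibitor of a prohormone convertase, had 11.3, 4.34 and 2.81 FPKM in the same order of libraries. Both were highest without dox and only slightly above Otx2-/- ESCs with dox. Otx2-/- EpiLCs, which have no transgene, were nearly as high as the no-dox library, at 21.8 FPKM of Ddhd1 and 9.84 FPKM of Pcsk1n. EpiLCs with Otx2 had 3.76 to 4.63 FPKM of Ddhd1 and 2.26 to 2.94 FPKM of Pcsk1n. The MHC class II gene H2-Eb1 had 5.60 FPKM without dox, 0.580 FPKM with dox and 1.26 FPKM in Otx2-/- ESCs, against 0.524 to 3.87 FPKM in R1 and E14 ESCs, and was highest without dox. The histone gene Hist1h2af had 8.12 FPKM without dox, 1.02 FPKM with dox and 1.33 FPKM in Otx2-/- ESCs, but R1 ESC replicate 2 had 17.2 FPKM and the R1 EpiLCs 8.87 and 37.3 FPKM. It shares sequence with its many copies.

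The 26 lower genes included Lefty1 and Lefty2, both antagonists of Nodal. Lefty1 had 12.5 FPKM without dox, 7.33 FPKM with dox and 31.7 FPKM in Otx2-/- ESCs, and 26.6, 17.7 and 28.3 FPKM in R1 and E14 ESCs. Lefty2 had 11.3 FPKM without dox, 8.95 FPKM with dox and 24.0 FPKM in Otx2-/- ESCs, against 14.5 to 43.6 FPKM in R1 and E14 ESCs. For both, the transgenic libraries were below every other ESC library. EpiLCs with Otx2 had 34.3, 111 and 140 FPKM of Lefty1, above every ESC library. They had 8.91, 30.6 and 49.9 FPKM of Lefty2, so 1 EpiLC library was as low as the ESCs with dox. That library, lowest of the EpiLCs with Otx2 for both genes, was the R1 culture without activin A. The R1 culture with activin A had 111 FPKM of Lefty1 and 30.6 FPKM of Lefty2.

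Grk4, a kinase of G protein-coupled receptors, had 20.6 FPKM without dox, 19.4 FPKM with dox and 55.0 FPKM in Otx2-/- ESCs, against 36.5 to 63.1 FPKM in R1 and E14 ESCs. Dnahc8, an axonemal dynein heavy chain, had 10.8 FPKM without dox, 4.71 FPKM with dox and 31.6 FPKM in Otx2-/- ESCs, against 21.1 to 24.0 FPKM in R1 and E14 ESCs. Lnpep, an aminopeptidase, had 10.1 FPKM without dox, 5.87 FPKM with dox and 25.2 FPKM in Otx2-/- ESCs, against 19 to 26.2 FPKM in R1 and E14 ESCs. In these 3 genes neither transgenic library reached the range of the ESC libraries without the transgene, and EpiLCs were low as well. Lipi, a lipase (21.9 FPKM without dox, 20.1 FPKM with dox, 49.9 FPKM in Otx2-/- ESCs), and the vomeronasal receptor gene Vmn2r55 (5.68, 4.89 and 16.4 FPKM) had the same order. The imprinted adaptor gene Grb10 had 7.74 FPKM without dox, 4.51 FPKM with dox and 19.6 FPKM in Otx2-/- ESCs, against 10.1 to 22.8 FPKM in R1 and E14 ESCs. The zinc finger genes Zfp934 and Zfp960, at -1.27 and -1.16 (log2), belong like Vmn2r55 to families with similar copies, so reads may be split among them.

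Rabggtb, Hipk3 and Ercc2 were lower without dox than in Otx2-/- ESCs but had uneven values among ESCs with Otx2. Rabggtb, a subunit of Rab geranylgeranyl transferase, had 94.5 FPKM without dox, 103 FPKM with dox and 645 FPKM in Otx2-/- ESCs, but R1 ESCs had 99.4 and 223 FPKM and E14 ESCs 566 FPKM. The kinase gene Hipk3 had 4.29 FPKM without dox, 280 FPKM with dox and 22.3 FPKM in Otx2-/- ESCs, and R1 ESCs had 2.62 and 42.4 FPKM. The DNA repair helicase gene Ercc2 had 60.3 FPKM without dox, 138 FPKM with dox and 169 FPKM in Otx2-/- ESCs, and R1 ESCs had 66.1 and 142 FPKM. In Rabggtb, Hipk3 and Ercc2 the ESC libraries with Otx2 alone spanned most of the difference.

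**Figure D2:**
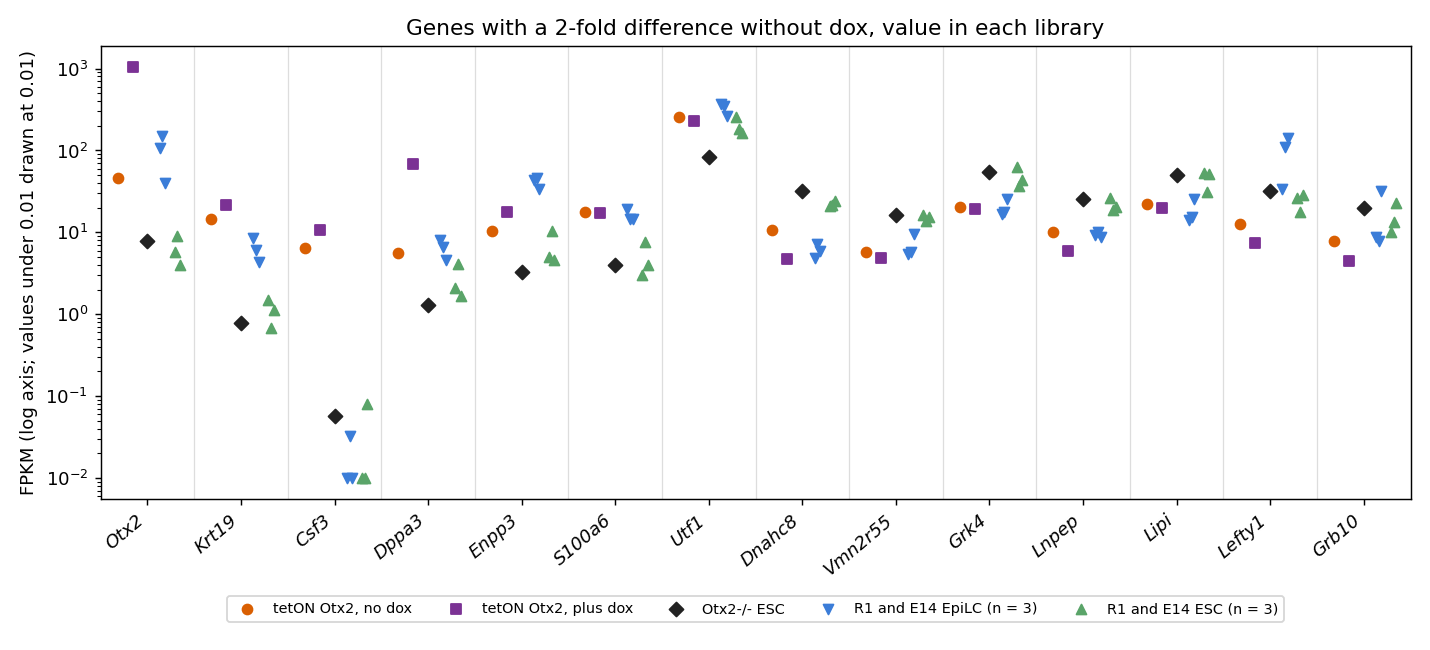
FPKM (log axis) of Otx2 and of 13 genes with a 2-fold difference between no dox and Otx2-/- ESCs, with 1 point per library: no dox, plus dox, Otx2-/- ESC, the 3 EpiLC and the 3 ESC libraries of R1 and E14. In Krt19 and S100a6 both transgenic libraries lie above all 4 other ESC libraries, and in Grk4, Dnahc8 and Lnpep both lie below them.

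Promoter sequences are shown for the 3 largest-ratio genes other than Otx2 that also rose in EpiLCs and have an entry, and for the 2 named-symbol genes other than Otx2 whose promoter holds the OTX2 core. They are RefSeq sequences (GRCm38.p6), from 250 bases before to 50 bases after the gene start, read 5′ to 3′ on the gene's strand, with capitals marking TAATCC or its reverse complement GGATTA. Rbm47 encodes an RNA-binding protein and had 5.34 FPKM without dox, 9.19 FPKM with dox and 1.95 FPKM in Otx2-/- ESCs.
S100a6, chr3:90612644-90612943, plus strand: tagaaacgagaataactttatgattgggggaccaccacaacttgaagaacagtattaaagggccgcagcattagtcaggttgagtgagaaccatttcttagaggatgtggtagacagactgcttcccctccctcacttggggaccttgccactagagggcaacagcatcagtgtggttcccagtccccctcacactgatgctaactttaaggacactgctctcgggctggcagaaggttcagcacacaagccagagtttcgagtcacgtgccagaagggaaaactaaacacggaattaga
Utf1, chr7:139943606-139943905, plus strand: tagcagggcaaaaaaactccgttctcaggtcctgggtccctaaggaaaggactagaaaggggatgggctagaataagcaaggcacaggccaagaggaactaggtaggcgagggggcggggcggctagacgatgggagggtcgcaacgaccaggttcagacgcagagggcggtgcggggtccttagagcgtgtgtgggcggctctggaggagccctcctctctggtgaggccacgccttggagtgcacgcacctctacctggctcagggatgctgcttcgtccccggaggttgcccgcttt
Enpp3, chr10:24836146-24836445, minus strand: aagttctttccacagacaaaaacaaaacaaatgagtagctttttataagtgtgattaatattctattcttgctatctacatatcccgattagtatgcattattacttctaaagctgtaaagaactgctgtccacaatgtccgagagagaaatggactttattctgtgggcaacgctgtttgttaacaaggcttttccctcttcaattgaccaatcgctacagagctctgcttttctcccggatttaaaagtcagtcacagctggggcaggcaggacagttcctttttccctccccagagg
Rbm47, chr5:66151905-66152204, minus strand: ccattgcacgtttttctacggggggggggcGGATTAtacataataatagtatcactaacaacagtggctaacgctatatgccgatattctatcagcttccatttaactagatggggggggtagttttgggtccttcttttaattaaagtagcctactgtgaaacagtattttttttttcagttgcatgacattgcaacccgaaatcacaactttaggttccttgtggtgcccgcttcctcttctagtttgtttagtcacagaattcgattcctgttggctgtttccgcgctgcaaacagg
Grk4, chr5:34660129-34660428, plus strand: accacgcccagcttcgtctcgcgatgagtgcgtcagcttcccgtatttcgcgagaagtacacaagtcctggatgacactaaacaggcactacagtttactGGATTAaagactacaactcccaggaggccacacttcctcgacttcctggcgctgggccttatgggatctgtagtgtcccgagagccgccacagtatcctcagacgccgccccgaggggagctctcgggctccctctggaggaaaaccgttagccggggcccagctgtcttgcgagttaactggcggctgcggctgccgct

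The core begins 220 bases before the gene start in Rbm47 and 150 bases before it in Grk4, and these letters are not in the S100a6, Utf1 and Enpp3 windows. Of the 54 higher genes, 31 had a promoter in the RefSeq table and 3 of these held the core (9.68%: D17Ertd648e, Otx2 and Rbm47). Of the 26 lower genes, 14 had a promoter and 2 held it (14.3%: Gm20594 and Grk4). Over all of the 32851 RefSeq promoters, 7.06% held it, and among those of the usable genes 6.67%, so with so few promoters the shares do not stand apart.

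The directions with dox were then read for the counted genes. Of the 54 higher genes, 48 were also above Otx2-/- ESCs with dox (88.9%, against 44.8% of all 8633), and 26 of them at least 2-fold (48.1%, against 4.37%). Of the 26 lower genes, 25 were also below Otx2-/- ESCs with dox (96.2%, against 55.2%), and 22 at least 2-fold (84.6%, against 6.65%). Both comparisons use the same Otx2-/- library, so a value that was off in that library alone would give the same direction in both. Effects of dox itself and of induced Otx2 cannot be told apart. Against the mean of the R1 and E14 ESC libraries, which this comparison does not use, 41 of the 54 were higher with dox (75.9%, against 40.4%) and 24 of the 26 were lower (92.3%, against 59.6%). The no-dox value itself was above all 4 ESC libraries without the transgene in 39 of the 54 (72.2%, against 20.3%) and below all 4 in 21 of the 26 (80.8%, against 19.5%). In 21 of the 54, as in Utf1, the Otx2-/- library was also below all of the R1 and E14 libraries (38.9%, against 13.3%). The genes were chosen on their no-dox and Otx2-/- values, so these shares are a description and nothing is read from them.

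The place of the plus-dox value beside the no-dox and Otx2-/- values differed among the counted genes. Of the 54 higher genes, 21 were higher still with dox, 27 lay between the no-dox and Otx2-/- values, and 6 were at or below the Otx2-/- value. That 21 is 38.9%, beside 39.7% of all 8633 genes that were higher with dox than without. Of the 26 lower genes, 20 were lower still with dox (76.9%, against 60.3%), 5 lay between and 1, Hipk3, was above. The genes were chosen on the no-dox value, so nothing is read from these shares. Wfdc2, a secreted protease inhibitor, is among those that were higher at each step, with 35.9 FPKM without dox, 154 FPKM with dox and 15.7 FPKM in Otx2-/- ESCs.

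The reverse reading starts from the genes with the largest difference with dox and asks where they lay without it. With dox, 357 genes were at least 2-fold above the mean of R1 and E14 ESCs, and 607 at least 2-fold below it. These groups were set without the no-dox and Otx2-/- libraries. Of the 357, 287 were above Otx2-/- ESCs without dox (80.4%, against 55.6% of all 8633), with a median ratio of 0.29 and quartiles of 0.04 and 0.50. Of the 607, 181 were above Otx2-/- ESCs without dox (29.8%), with a median of -0.17. The 5 FPKM minimum does use those libraries, and 55 of the 357 were under it in Otx2-/- ESCs against 9 without dox, so genes could enter for being high without dox. With the minimum set instead, after the data were seen, on the plus-dox library or the mean of R1 and E14 ESCs, 534 of 694 genes above with dox were above Otx2-/- ESCs without it (76.9%, against 56.5% of all 9151), with a median of 0.22. For 608 genes below with dox these were 180 (29.6%) and -0.18. At 4-fold, 176 of 224 genes above with dox (78.6%, median 0.26) and 29 of 98 below (29.6%, median -0.19) were above Otx2-/- ESCs without dox, by the same minimum. With dox, the 357 genes had a median of 1.28 over Otx2-/- ESCs and the 607 a median of -1.33. Both groups were chosen on their plus-dox values, so a large size with dox follows from that choice. The sizes with and without dox are therefore not compared. The 2 transgenic libraries come from 1 line, so features of the line that both share enter this reading.

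Several genes at least 4-fold above R1 and E14 ESCs with dox, named after their values were seen, were intermediate without dox. Sp110, a nuclear body protein, had 6.48 FPKM without dox, 49.8 FPKM with dox and 2.78 FPKM in Otx2-/- ESCs, and lay just under the 2-fold limit at 0.99. Podxl, a sialomucin of the cell surface, had 11.9 FPKM without dox, 65.2 FPKM with dox and 6.40 FPKM in Otx2-/- ESCs. Krt8, the keratin partner of simple epithelia, had 8.87 FPKM without dox, 29.7 FPKM with dox and 4.61 FPKM in Otx2-/- ESCs. Others were far higher with dox and not above Otx2-/- ESCs without it. Pdpn, a membrane mucin, had 13.4 FPKM without dox, 197 FPKM with dox and 18.5 FPKM in Otx2-/- ESCs, and Impdh1, an enzyme of guanine nucleotide synthesis, had 25.5, 291 and 26.0 FPKM.

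Transcript length moved with the same ratio. Genes were put into 4 classes of equal size by their longest annotated transcript. In the shortest class, of at most 2148 bases, the median of no dox over Otx2-/- was 0.17, and it was 0.08, 0.01 and -0.13 in the following classes up to the longest. With dox over Otx2-/- the medians ran the same way, at 0.15, -0.02, -0.11 and -0.29. Of the 47 higher genes with a length, 32 were in the shortest class, and of the 22 lower genes 9. The part of length in the gene counts was not tested. Within each of the 4 classes, with the minimum set on the no-dox and Otx2-/- libraries, genes at least 2-fold above R1 and E14 ESCs with dox had a higher median without dox than genes at least 2-fold below: 0.37 and -0.07 in the shortest, 0.30 and -0.12 in the second, 0.17 and -0.13 in the third, and 0.13 and -0.30 in the longest.

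**Figure D3:**
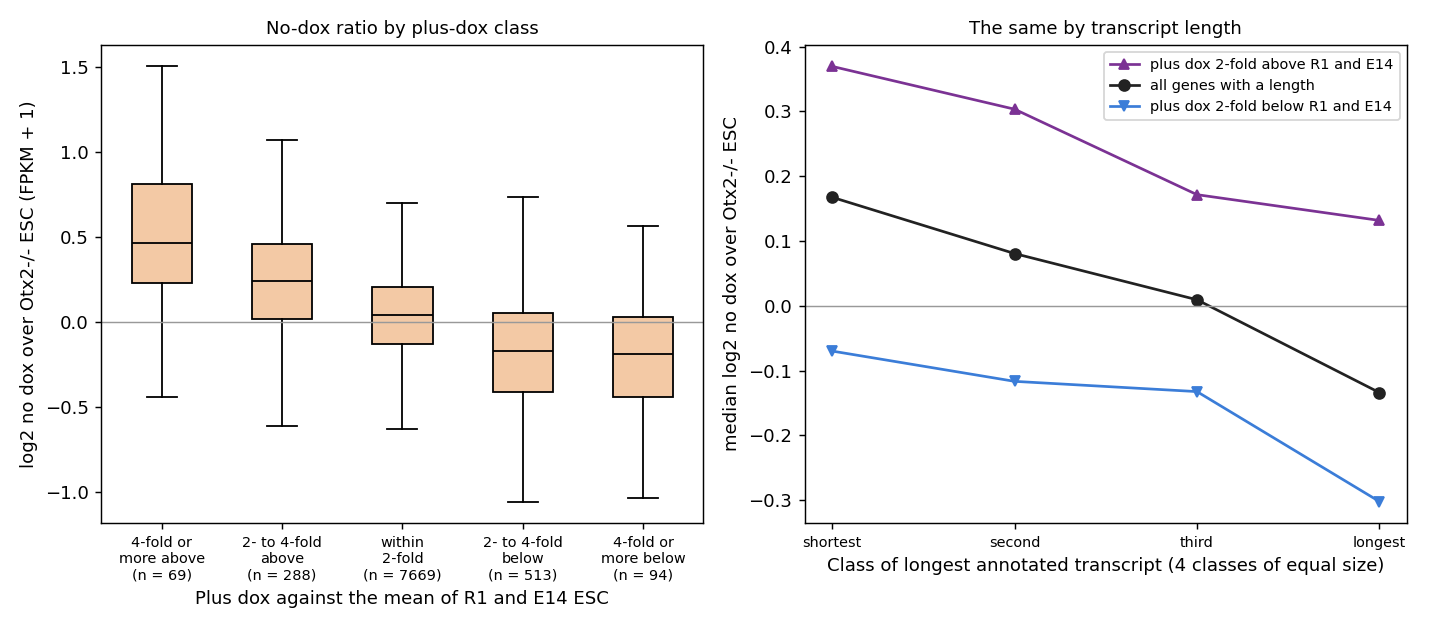
Left, log2 ratio of no dox over Otx2-/- ESCs (FPKM + 1) for genes grouped by the plus-dox library against the mean of R1 and E14 ESCs; boxes are quartiles with the median, whiskers reach 1.5 times the box height and single points are not drawn. Right, the median ratio by class of transcript length, for all genes and for genes at least 2-fold above or below with dox; the medians on the left run from 0.47 to -0.19, with genes that entered through the no-dox library alone included, and on the right the 2 groups stay apart while all 3 lines slope down.

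EpiLC differentiation gave a different picture. Between the 3 EpiLC and the 3 ESC libraries with Otx2, 1191 of 12244 genes rose (9.73%) and 1293 fell (10.6%) by limma's moderated test on log2(FPKM + 1) with cell line as covariate, at a Benjamini-Hochberg adjusted p under 0.05. The 490 usable genes that rose in EpiLCs had a median of 0.03 for no dox over Otx2-/- ESCs and 54.9% of them were above, and the 1130 that fell had a median of 0.03 and 54.1% above, against 55.6% of all genes. Genes of the EpiLC transition as a whole thus had about the median of all genes without dox. The 35 genes that rose at least 4-fold in EpiLCs, Otx2 included, had a median of 0.24 with 25 above (71.4%), and the 150 that fell at least 4-fold had a median of -0.08 with 63 above (42.0%). The same 5 FPKM minimum applies to these groups, so genes that are low in ESCs may enter for being high without dox.

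Among the counted genes, 9 of the 54 higher ones rose in EpiLCs (16.7%, against 5.68% of the 8633): Otx2, Krt19, S100a6, Utf1, Dppa3, Enpp3, Capg, Fabp5 and Liph. Enpp3 rose by 2.53 ± 0.25 (log2, SE; limma adjusted p = 0.00485), Krt19 by 1.79 ± 0.26 (limma adjusted p = 0.0114) and S100a6 by 1.63 ± 0.31 (limma adjusted p = 0.0221), in 3 EpiLC against 3 ESC libraries. Another 4 of the 54 fell in EpiLCs, among them Id3. Of the 26 lower genes, 9 fell in EpiLCs (34.6%, against 13.1%), Grk4, Dnahc8, Lnpep, Lipi and Vmn2r55 among them, and 0 rose by the same limma test. The EpiLC calls rest on few libraries: leaving out 1 of them at a time gave 2 to 11 genes in place of the 9 higher ones and 2 to 16 in place of the 9 lower ones, the fewest without either R1 EpiLC library and the most without R1 ESC replicate 1.

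The pluripotency state without dox was that of naive ESCs. Klf4, a naive-state factor, had 73.2 FPKM without dox, 22.8 FPKM with dox and 82.1 FPKM in Otx2-/- ESCs. Esrrb, an orphan nuclear receptor of the naive network, had 196 FPKM without dox, 45 FPKM with dox and 214 FPKM in Otx2-/- ESCs. Nanog, counted together with its copy Nanogpd, had 454 FPKM without dox, 150 FPKM with dox and 562 FPKM in Otx2-/- ESCs. In each of these the no-dox value was within 0.31 (log2) of Otx2-/- ESCs, and the value with dox was at least 1.81 lower. Pou5f1 had 1088 FPKM without dox, 440 FPKM with dox and 861 FPKM in Otx2-/- ESCs, and Sox2 had 202, 61.6 and 179 FPKM. Tfcp2l1, another naive factor, was 126 FPKM without dox, 148 FPKM with dox and 175 FPKM in Otx2-/- ESCs, so it stayed high with dox.

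Over the list of 18 naive genes, 8 were above Otx2-/- ESCs without dox (55.6% of all genes were). The median ratio of the list was -0.10, against 0.04 for all genes. The only one past 2-fold was Dppa3. With dox the median was -1.51, 13 of the 18 were at least 2-fold lower than in Otx2-/- ESCs (6.65% of all 8633 genes were), and Dppa3 was the only one higher. Eras, an ESC-specific Ras, went opposite ways: it had 34.2 FPKM without dox, above all 4 ESC libraries without the transgene, 1.48 FPKM with dox and 19.2 FPKM in Otx2-/- ESCs. Eras is listed at the same interval as Pcsk1n (mm9 chrX:7496947-7505733), so the values of these genes may not be separate. Of 13 general pluripotency genes, Utf1 alone was past 2-fold without dox, and with dox 2 were at least 2-fold higher and 7 lower (4.37% and 6.65% of all 8633 genes were).

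The formative list had 12 usable genes, of which 10 were above Otx2-/- ESCs without dox (55.6% of all genes were), with a median of 0.37 and Otx2 alone past 2-fold. Otx2, which the transgene encodes, is counted among the 12 and among the 10. Over the mean of R1 and E14 ESCs, the median without dox was 0.05. Dnmt3b, a de novo DNA methyltransferase that EpiLCs induce, had 48.5 FPKM without dox, 157 FPKM with dox and 36.2 FPKM in Otx2-/- ESCs. R1 ESC replicate 1 was higher in Dnmt3b, at 77.1 FPKM, while R1 ESC replicate 2 and E14 ESCs had 28.6 and 39.7 FPKM. Dnmt3a, a relative of Dnmt3b, had 13.4 FPKM without dox, 48.9 FPKM with dox and 10.7 FPKM in Otx2-/- ESCs. Cldn6, a tight junction protein, had 9.60, 28.2 and 6.23 FPKM in the same order. With dox 5 of the 12, Otx2 included, were at least 2-fold higher and 5 lower than in Otx2-/- ESCs (4.37% and 6.65% of all genes were), with a median of -0.41. The early epiblast genes Pou3f1 and Fgf5 were under 5 FPKM in both libraries: Pou3f1 had 2.38 FPKM without dox, 6.01 FPKM with dox and 0.906 FPKM in Otx2-/- ESCs, and Fgf5 0.373, 3.63 and 0.451 FPKM. EpiLCs with Otx2 had 42.0 to 72.2 FPKM of Pou3f1 and 28.4 to 35.8 FPKM of Fgf5, levels that neither transgenic library approached.

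**Figure D4:**
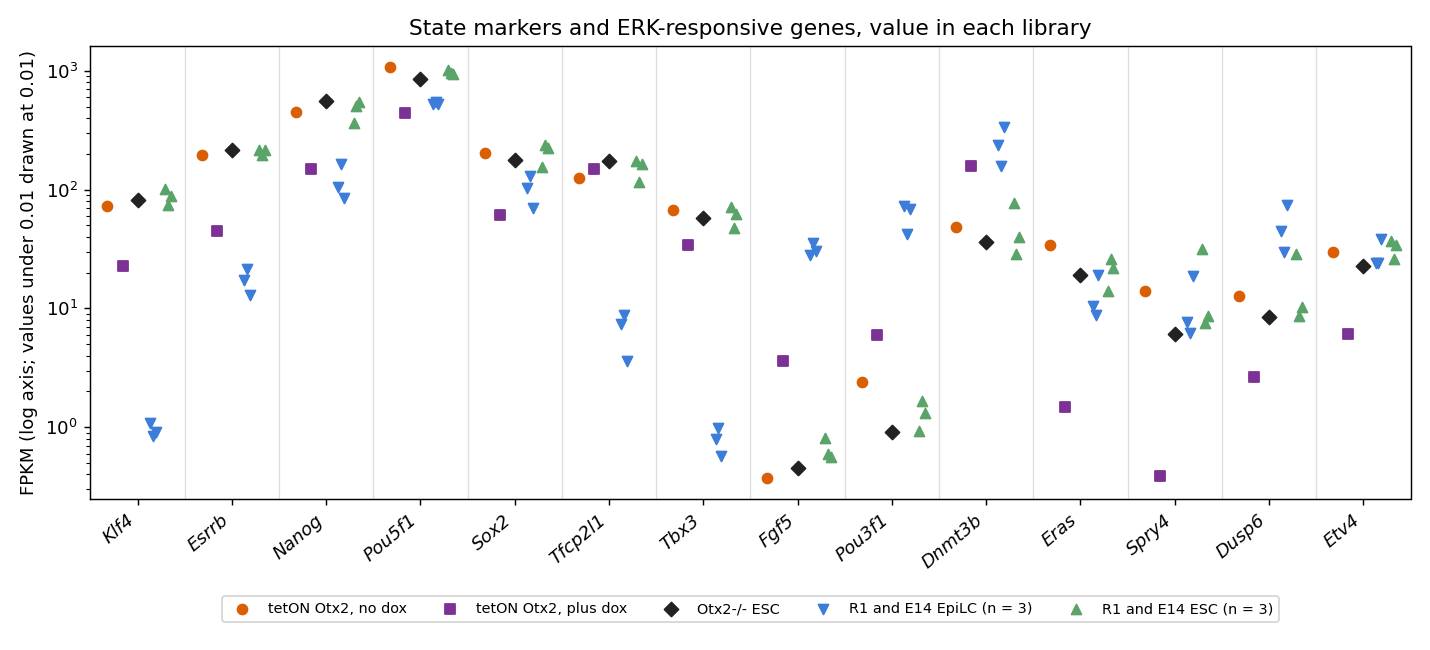
FPKM (log axis) of naive, general and epiblast markers and of ERK-responsive genes, with 1 point per library: no dox, plus dox, Otx2-/- ESC, the 3 EpiLC and the 3 ESC libraries of R1 and E14. Without dox the markers Klf4, Esrrb and Nanog stay with the ESC libraries and Fgf5 stays under 1 FPKM, while Spry4, Dusp6, Etv4 and Eras lie above Otx2-/- ESCs without dox and below them with dox.

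Lists of signalling targets were read next, and differences between pathways were not tested. Of 10 genes of Nodal and activin signalling, Lefty1 and Lefty2 were 2-fold lower without dox (0.301% of all genes were). Nodal itself had 45.8 FPKM without dox, 46.8 FPKM with dox and 42.9 FPKM in Otx2-/- ESCs, and the list's median was 0.01. The co-receptor gene Tdgf1 had 453 FPKM without dox, 284 FPKM with dox and 650 FPKM in Otx2-/- ESCs. R1 ESC replicate 1 had 285 FPKM of Tdgf1, but R1 ESC replicate 2 and E14 ESCs had 796 and 695 FPKM. Of 5 BMP targets, 4 were above Otx2-/- ESCs without dox (55.6% of all genes were), with a median of 0.61. Id3, an inhibitor of basic helix-loop-helix factors, had 21.8 FPKM without dox, 14.9 FPKM with dox and 10.1 FPKM in Otx2-/- ESCs. R1 ESC replicate 1 was higher in Id3, at 38.2 FPKM, while R1 ESC replicate 2 and E14 ESCs had 5.42 and 16.6 FPKM. Id1 had 15.8 FPKM without dox, 12.6 FPKM with dox and 9.26 FPKM in Otx2-/- ESCs. Without dox Id1 was above all 4 ESC libraries without the transgene.

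Targets and feedback genes of ERK, the kinase that PD0325901 keeps inactive through MEK, lay on opposite sides of Otx2-/- ESCs without and with dox. Of the 10 usable ones, 9 were above Otx2-/- ESCs without dox (55.6% of all genes were), with a median of 0.37 and Spry4 past 2-fold. Over the mean of R1 and E14 ESCs, which includes R1 ESC replicate 1, their median without dox was -0.20. With dox the median over Otx2-/- ESCs was -0.76 and 4 were at least 2-fold lower (6.65% of all genes were). Spry4, a feedback inhibitor, had 13.9 FPKM without dox, 0.388 FPKM with dox and 6.05 FPKM in Otx2-/- ESCs. The phosphatase gene Dusp6 had 12.7 FPKM without dox, 2.66 FPKM with dox and 8.53 FPKM in Otx2-/- ESCs, and the ETS factor gene Etv4 29.7, 6.10 and 22.6 FPKM. Without dox, Spry4, Dusp6 and Etv4 remained within the range of R1 and E14 ESCs, and with dox they were below it. For Spry4 and Dusp6 the top of that range was R1 ESC replicate 1 alone, at 31.5 and 28.6 FPKM. R1 ESC replicate 2 and E14 ESCs were below the no-dox values, at 7.60 and 8.57 FPKM of Spry4 and 8.66 and 10.3 FPKM of Dusp6. Of 28 anterior and eye genes tied to Otx2, 4 reached 5 FPKM in either library, with a median of -0.12 and 0 past 2-fold without dox, and all 4 (Fzd5, Sfrp1, Mitf and Gbx2) at least 2-fold lower with dox. For Wnt targets (5 genes) and LIF and Stat3 targets (12 genes), 0 genes were past 2-fold without dox. Of all genes, 0.626% were 2-fold higher and 0.301% lower without dox.

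Other lists were read in the same way. All 8 interferon response genes were above Otx2-/- ESCs (55.6% of all genes were), with a median of 0.36 and 0 past 2-fold. Bst2, a membrane tether of virions, had 15.8 FPKM without dox, 66.0 FPKM with dox and 9.27 FPKM in Otx2-/- ESCs. With dox 2 of the 8 were at least 2-fold higher and 2 lower (4.37% and 6.65% of all genes were). Of 25 cytoplasmic ribosomal protein genes, 23 were above Otx2-/- ESCs without dox (median 0.35), where 55.6% of all genes were. All 25 were above with dox (median 0.44), where 44.8% of all genes were, and 0 passed 2-fold without or with dox. The ribosomal and interferon lists have short transcripts (medians of 1128 and 871 bases), where all genes tended to be higher, and the part of length in these lists was not tested. Tet2, a 5-methylcytosine dioxygenase, had 27.1 FPKM without dox, 6.57 FPKM with dox and 43.1 FPKM in Otx2-/- ESCs, below all 4 ESC libraries without the transgene. Median ratios without dox lay between -0.10 and 0.18 for genes of glycolysis, mitochondrial respiration, cholesterol synthesis, p53, the integrated stress response, heat shock, the cell cycle, the Myc family, the extracellular matrix, chromatin and housekeeping.

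**Figure D5:**
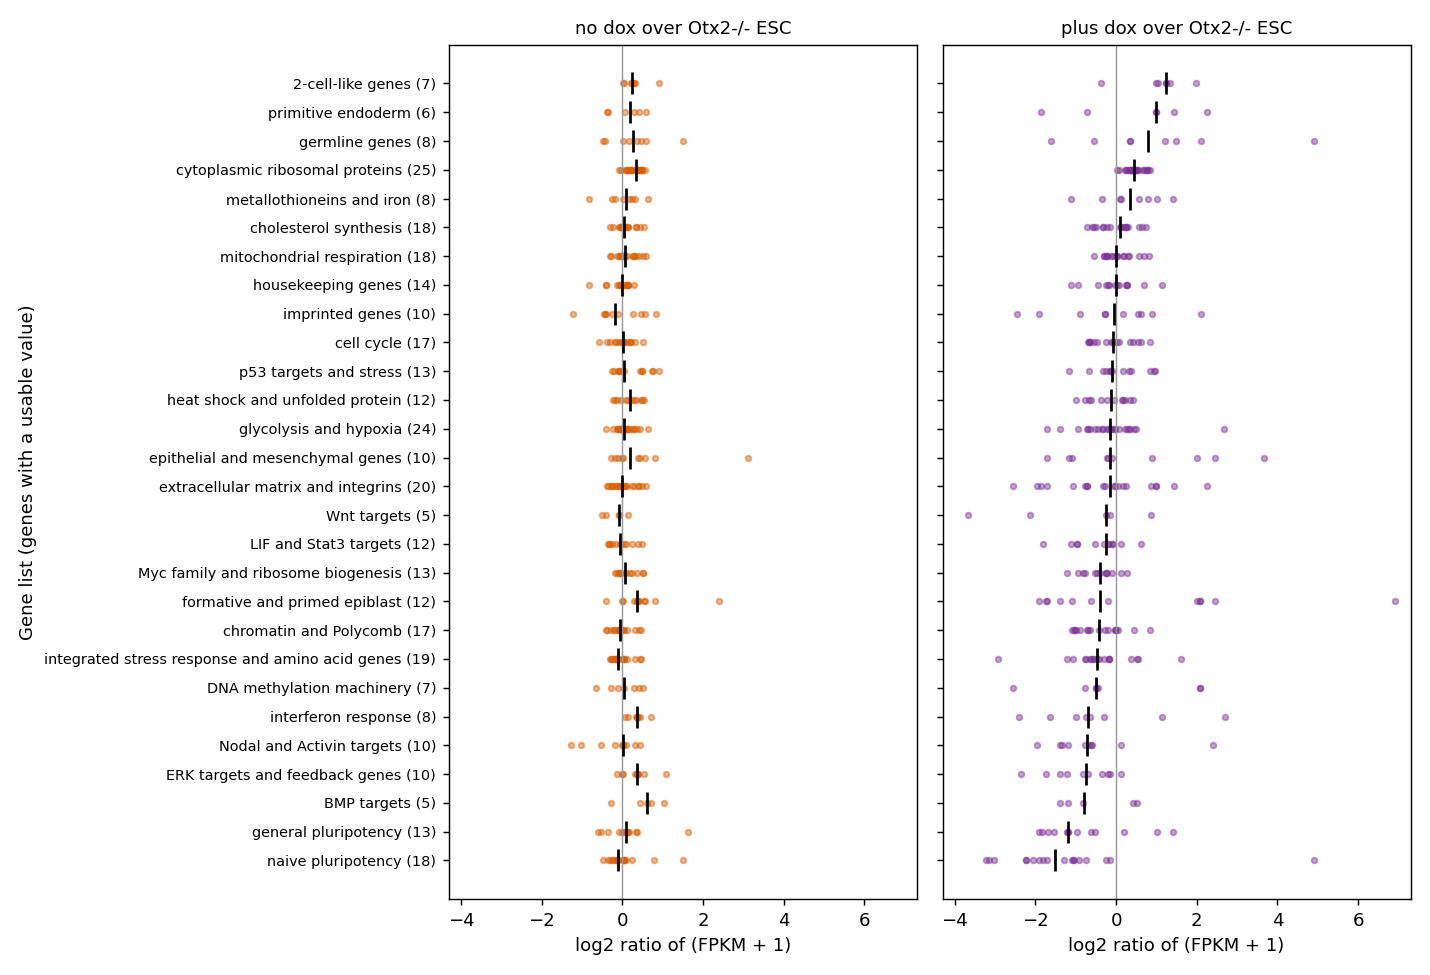
Log2 ratio over Otx2-/- ESCs (FPKM + 1) of the genes of 28 lists with at least 5 usable genes, without dox (left) and with dox (right); each dot is 1 gene, black ticks are medians, and the number of genes is in parentheses. Most medians on the left lie near 0, while on the right the naive list has a median of -1.51 and the 2-cell-like list of 1.24.

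Short sets of markers of other cell types had low sums in both libraries. The summed FPKM of 7 fibroblast and feeder markers was 2.88 without dox and 1.03 in Otx2-/- ESCs, of 5 primitive endoderm markers 2.29 and 1.97, of 4 trophoblast markers 0.581 and 0.310, of 3 mesendoderm markers 3.24 and 2.47, and of 4 neural markers 6.21 and 3.53. With dox the fibroblast sum was 2.79 and the neural sum 1.19. R1 and E14 ESCs had sums of 1.10 to 1.76 for fibroblast markers and 2.40 to 4.76 for neural markers, so among the ESC libraries both sums were highest without dox. EpiLCs with Otx2 had fibroblast sums of 3.38 to 8.19. These are levels where 3 of the 7 fibroblast markers were at 0 without dox (Dcn, Lum and Postn). Longer lists of such cell types did hold genes with at least 5 FPKM: 3 of 16 fibroblast, 6 of 16 primitive endoderm and 3 of 14 neural genes. Among them, Vim had 262 FPKM without dox and 259 FPKM in Otx2-/- ESCs, and Tubb3 46.4 and 47.8 FPKM. The 8 naive markers summed to 1524 FPKM without dox and 1715 in Otx2-/- ESCs, with 1510 to 1777 in R1 and E14 ESCs. In bulk RNA, fewer cells with a transcript and less of it per cell cannot be told apart, so an intermediate value such as that of Otx2 may come from all cells or from some.

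At the edges of the rules, Wls and Dmgdh entered with 5.00 FPKM in Otx2-/- ESCs, and Bbs4 and Acap3 stayed just out. At the fold limit, Zfp771 (1.00), Tes (1.01) and Fbp2 (1.02) were counted higher and Tuba3a (0.99), Sp110 (0.99) and Rundc3a (0.98) were not. The pseudocount of 1 shrinks the ratio of genes at a few FPKM, so the values above understate their change.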

How the data were processed

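RNA was sequenced in 10 libraries of mouse ESCs and EpiLCs after selection of polyadenylated RNA. The deposited tables hold gene-level FPKM that the authors obtained from TopHat and Cufflinks (mm9), per the submitters' processing notes. Their versions, settings and annotation are not given in the sources consulted. No strand marking is described in the labels' protocols, so reads of a gene and of an antisense partner cannot be separated. Each table has 23112 entries. After removal of 17 exact repeats, 228 entries that share a symbol were summed, leaving 22867 symbols.

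Ratios are log2 of FPKM + 1 (pseudocount 1), with 5 FPKM in either library and a 2-fold limit as the rule of size in place of a test. Usable genes leave out small RNA entries, entries of under 200 bp and genes listed at 0 in either library or in a library where the median over libraries is at least 5; this was chosen after the data were seen. EpiLC and ESC libraries with Otx2 were compared with limma 3.58.1 (trend, cell line as covariate, Benjamini-Hochberg, mean of at least 1 FPKM), checked on simulated data; its p-values measure only the spread between these libraries. Transcript lengths are the longest GENCODE vM21 transcript of the symbol, found for 90.6% of usable genes. Python 3.11.15 with pandas 2.3.3 and R 4.3.3 were used.

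Genes were named by rule: Otx2, the 12 largest ratios each way leaving out clone symbols, small RNAs, pseudogenes, Zscan4 copies and zeros, up to 4 per gene list, fixed markers and the neighbours of the limits. The members and the 33 gene lists (507 of 512 symbols matched) were chosen with earlier results of these data known. Alternatives were other pseudocounts, minimums, scalings, fold limits, references and left-out libraries.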

Additional observations from a re-analysis of the deposited data

How the results depend on the processing

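Counts of higher and lower genes depended mostly on the small RNA entries and on genes listed at 0. Over all 8951 genes, 120 were higher and 122 lower, with dox in the same direction in 79 and 110, and outside the 4 ESC libraries in 78 and 47. Without small RNAs and genes listed at 0 these were 55, 30, 49, 29, 39 and 21, and over the usable genes, chosen after the data were seen, 54, 26, 48, 25, 39 and 21. At 1.5-fold 364 were higher and 272 lower, and at 3-fold 70 were higher. With a pseudocount of 5, 46 higher genes were also above Otx2-/- ESCs with dox. Other minimums, median-ratio scaling and quantile normalization kept these counts within 1.5 times. Usable counts were 49 and 27 under both scalings. The EpiLC test called 1635 of the 8951 genes, and 240 to 2879 when 1 library was left out (240 without the R1 EpiLC library that had no activin A, 2879 without R1 ESC replicate 1). The 9 higher genes that rose in EpiLCs became 2 to 11, and the 9 lower genes that fell became 2 to 16. The medians of 0.29 and -0.17 for genes moved with dox stayed within 0.22 to 0.30 and -0.20 to -0.16 over 7 alternatives, the lowest of the first with the minimum set on other libraries. Of 125 values of 25 named genes under 5 settings, 97 moved by less than the spread between the R1 ESC replicates, 28 by more, and 0 changed sign. R1 ESC replicate 1 was unlike the rest, so this spread is wide for many genes. It does not measure the spread of the no-dox or Otx2-/- cells, which have 1 library each. No paired analysis was possible because only the R1 ESC libraries carry replicate numbers in the labels. Depth limits genes under about 5 FPKM, most of all with dox.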

Other observations

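The imprinted Dlk1-Dio3 region of chromosome 12 was looked at after its values were seen. The entry of Dio3os, which includes Mir1247, had 32.5 FPKM without dox, 55.8 FPKM with dox and 0.239 FPKM in Otx2-/- ESCs, and 36.5 and 0.506 FPKM in the R1 and 0.0407 FPKM in the E14 ESCs. The non-coding RNA gene Mirg, counted with 3 microRNAs, had 49.0 FPKM without dox, 69.3 FPKM with dox and 8.75 FPKM in Otx2-/- ESCs, and 29.2, 30.2 and 9.62 FPKM in R1 and E14 ESCs. Meg3 had 158 FPKM without dox, 209 FPKM with dox and 94.8 FPKM in Otx2-/- ESCs, beside the 71.2 to 164 FPKM of R1 and E14 ESCs. Rian, another RNA of the region, had 99.4 FPKM without dox, 114 FPKM with dox and 75.1 FPKM in Otx2-/- ESCs, and 58.7 and 71.3 FPKM in R1 ESC replicate 2 and E14 ESCs. Both transgenic libraries were thus above Otx2-/- ESCs for these 4 RNAs. Of the genes that name the region, Dio3 had 2.51 FPKM without dox, 20.7 FPKM with dox and 1.01 FPKM in Otx2-/- ESCs. Dlk1 had 0.125, 7.46 and 0.353 FPKM in the same order, so it was not above Otx2-/- ESCs without dox. R1 ESC replicate 1, which has no transgene, was as high as the no-dox library for Dio3os and Meg3, was not for Mirg, and is listed at 0 for Rian. Entries that include microRNAs are not among the usable genes.

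Genes of the 2-cell-like state, a rare state of ESC cultures that resembles the cleavage embryo, were looked at next. Zscan4c had 11.7 FPKM without dox, 23.3 FPKM with dox and 9.26 FPKM in Otx2-/- ESCs, against 1.22, 3.19 and 2.18 FPKM in R1 and E14 ESCs, so all 3 ESC libraries of Otx2-/- genotype were above the ESCs with Otx2. All 7 usable genes of this list were above Otx2-/- ESCs without dox (55.6% of all genes were), with a median of 0.23 and 0 past 2-fold, and 5 of 7 were at least 2-fold higher with dox (4.37% of all genes were). The Zscan4 copies share reads, so their values are not separate. Of 8 germline genes, 6 were above Otx2-/- ESCs without dox (median 0.27), with Dppa3 alone past 2-fold.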
